A study of Mus musculus with 18 samples.

Results

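The genes described here are 10 components and targets of leukemia inhibitory factor (LIF) and STAT3 signalling: LIF, LIFR, OSMR, STAT3, SOCS3, SOCS2, JUNB, CEBPD, PIM1 and BCL3. They were taken by name from the 30854 distinct gene names of an Illumina MouseWG-6 v2.0 bead array. The list was chosen with earlier results of these data known, so counts over it are descriptions. The array carries 23 probes for them, of which 16 passed the filter on dim probes (detected, at a detection p under 0.05, on at least 3 arrays), and all 10 were among the 16446 genes tested. The study asked how FGF2 and BMP4 drive murine embryonic stem (ES) cells toward endothelium when they are grown on PA6, a stromal line from bone marrow. The 18 arrays hold 3 replicates of each of 6 groups collected on day 3 in serum-free medium. These were co-cultures (ES/PA6) or stroma alone (PA6 mono-cultures), and each received either no growth factors (-GFs), 20 ng/ml of FGF2 or 10 ng/ml of BMP4. The PA6 mono-cultures show the stromal response by itself. All ES cells were of 1 line that carries enhanced green fluorescent protein at the τ locus and had been kept undifferentiated with LIF on growth-arrested fibroblasts. The co-culture medium, as the study's methods list it, contained no LIF. The BMP4 dose is that of the labels, as the methods state a smaller one for slide cultures.

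LIF is a secreted cytokine of the interleukin 6 family. It binds LIFR, which pairs with the shared signal transducer gp130 (IL6ST), while OSMR pairs with gp130 to bind oncostatin M. Janus kinases on these receptors phosphorylate STAT3, which enters the nucleus and switches on target genes. Among the targets are SOCS3, which binds gp130 and damps the signal, and several immediate-early and acute-phase genes. In mouse ES cells the pathway is known for sustaining self-renewal, and in stromal cells for acute-phase and inflammatory responses.

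In both culture types SOCS3 and BCL3 were several times higher with FGF2 than in -GFs. JUNB was several times higher with FGF2 in the mono-cultures, and its FGF2 response was smaller in the co-cultures. By mean level OSMR and STAT3 were highest in FGF2-treated PA6 cells, as were SOCS3, BCL3, JUNB and CEBPD. At the thresholds given below STAT3 was not called there, and the call of OSMR was lost under some settings. LIF itself was dim, and none of the 10 was called with BMP4 at those thresholds. Levels are given as log2 normalized intensity, changes as log2 fold changes with their standard error (SE), and arrays in the order of replicates 1, 2 and 3. A gene is said to have risen or fallen where the Benjamini-Hochberg adjusted p of limma, a linear model fitted to all 16446 genes, was under 0.1 and the log2 fold change was over 1 in size, the thresholds of the study's methods.

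The arrays were of similar quality. Detected probes numbered 19365 to 20412 per co-culture array and 17125 to 18391 per mono-culture array, and within a group the arrays correlated at 0.981 to 0.992 over all genes. The labels matched the markers: the 6 tested markers of pluripotent cells (of 7 listed) summed to between 21069 and 42815 normalized intensity units on co-culture arrays and between 297 and 404 on mono-culture arrays, where 5 of the 6 were not detected on any -GFs array. The 8 stromal markers summed to 50688 to 84173 units and 132472 to 159403 units, respectively. All of these are bulk cultures, so fewer cells of a type and less RNA per cell cannot be told apart. The arrays of -GFs and of FGF2 with the lowest stromal sums of their co-culture groups, at 61740 and 50688 units, were both replicate 3. Both stand low for some genes below but not for all. FGF2 replicate 3 was the highest of its group for SOCS3, BCL3, LIFR and SOCS2, and -GFs replicate 3 for LIFR. The labels name the replicates as biological, with 1 well per treatment in each, so the p-values measure the spread between these wells.

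**Figure D1:**
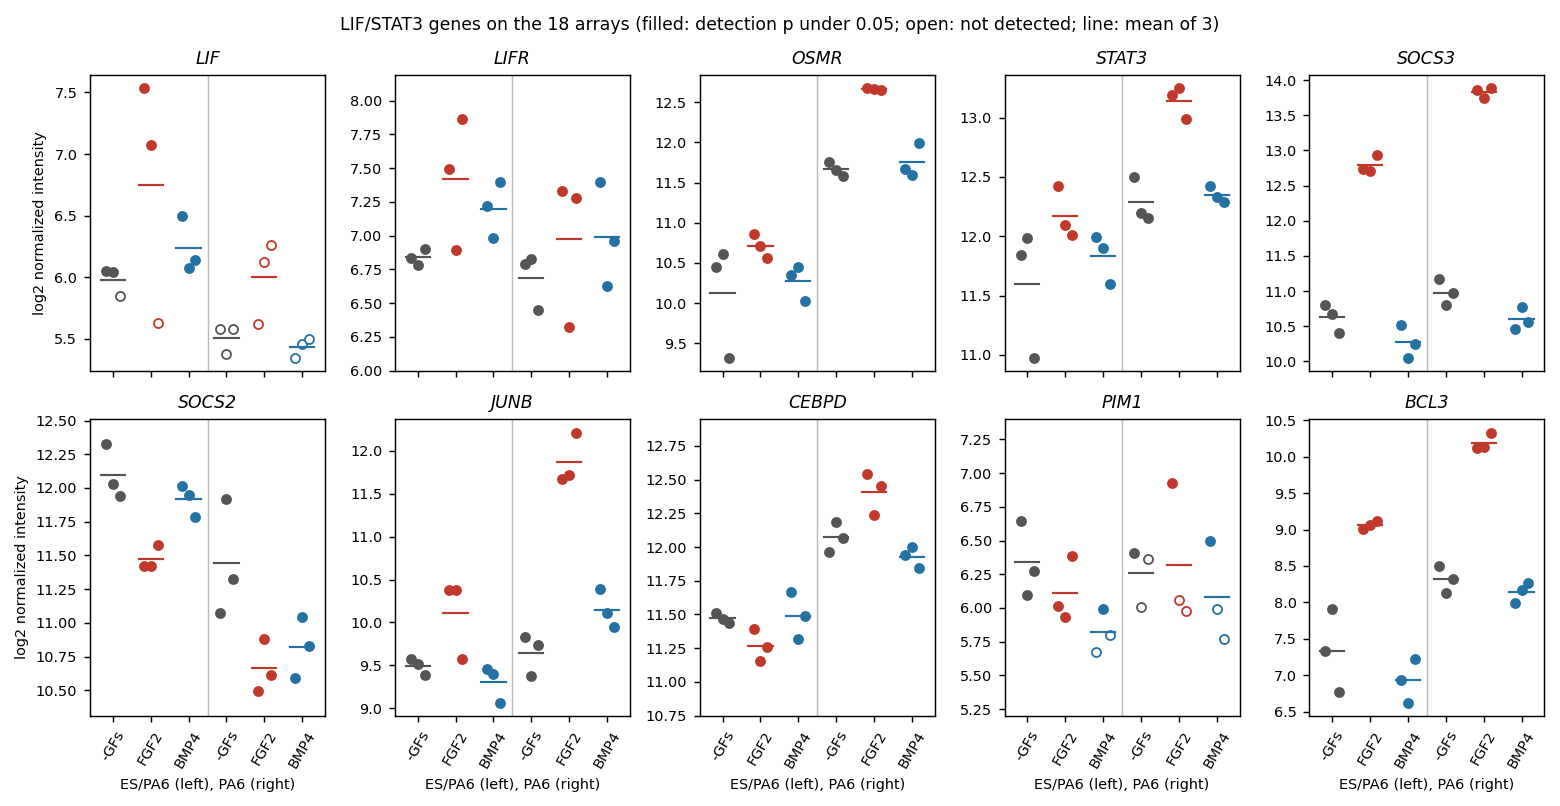
Log2 normalized intensity (vertical axes, 1 panel per gene, each with its own range) of the 10 genes on the 18 arrays, by group, with co-cultures left and mono-cultures right of the grey line. Points are arrays (open where the detection p was 0.05 or above) and lines are means of 3. SOCS3 and BCL3 lay above all other arrays of their culture type with FGF2, while LIF and PIM1 stayed near the detection limit.

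SOCS3 (probe ILMN_2618176), the feedback inhibitor, had the largest FGF2 response of the 10, and its promoter is shown for the STAT element it holds. The promoter in RefSeq, 250 bases before to 50 after the start, lies at chr11:117969317-117969616 on the minus strand of GRCm38.p6. This window lies wholly inside the annotated span of the gene, chr11:117966079-117970336. Positions are thus counted from a start within that span, not from its outer end. The letters TTCNNNGAA, the general STAT element, which reads alike on both strands, stand in it once, as TTCTTAGAA at positions -154 to -146 from the start. Promoters were matched for 8 of the 10 genes (10 promoters, all but CEBPD and SOCS2), and SOCS3 was the only 1 of the 8 with the motif, which 8.3% of all 32851 promoters and 9.55% of all 27025 genes hold, so that 1 of 8 is near the share of all genes. The promoters of BCL3 (chr7:19822706-19823005, minus strand) and JUNB (chr8:84978699-84978998, minus strand), which follow SOCS3 in the size of the FGF2 response of the mono-cultures, are shown beside it for comparison. Capitals mark the motif, which was the only one searched.
SOCS3: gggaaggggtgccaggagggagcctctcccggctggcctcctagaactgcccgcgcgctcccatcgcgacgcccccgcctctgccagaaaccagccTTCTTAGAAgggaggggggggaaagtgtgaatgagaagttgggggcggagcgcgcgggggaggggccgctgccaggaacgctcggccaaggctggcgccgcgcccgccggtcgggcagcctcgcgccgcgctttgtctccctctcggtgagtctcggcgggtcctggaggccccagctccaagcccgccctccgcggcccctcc
BCL3: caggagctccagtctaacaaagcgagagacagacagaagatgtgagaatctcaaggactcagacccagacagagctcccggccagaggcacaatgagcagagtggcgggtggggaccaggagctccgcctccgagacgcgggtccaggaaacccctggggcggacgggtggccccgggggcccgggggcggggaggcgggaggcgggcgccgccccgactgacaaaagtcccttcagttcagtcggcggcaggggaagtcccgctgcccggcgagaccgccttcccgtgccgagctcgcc
JUNB: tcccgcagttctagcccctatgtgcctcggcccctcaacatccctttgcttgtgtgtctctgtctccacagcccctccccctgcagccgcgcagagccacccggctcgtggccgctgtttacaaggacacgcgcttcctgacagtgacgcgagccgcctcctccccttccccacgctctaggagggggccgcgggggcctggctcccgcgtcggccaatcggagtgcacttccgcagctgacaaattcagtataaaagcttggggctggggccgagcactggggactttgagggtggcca
A match describes these letters only, and its absence from a 300-base window says nothing of binding elsewhere.

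SOCS3 responded to FGF2 in both culture types. In the co-cultures its level was 10.80, 10.68 and 10.40 in -GFs, 12.74, 12.71 and 12.93 with FGF2, and 10.52, 10.05 and 10.25 with BMP4. In the mono-cultures it was 11.17, 10.80 and 10.97 in -GFs, 13.86, 13.74 and 13.89 with FGF2, and 10.47, 10.77 and 10.56 with BMP4. Every FGF2 array thus lay well above every array of the other 4 groups, with no overlap. SOCS3 rose by 2.17 ± 0.148 (SE) in the co-cultures, a 4.49-fold change (adjusted p 3.47e-07), and by 2.85 ± 0.148 in the mono-cultures, a 7.21-fold change (adjusted p 6.77e-09). The group means ordered as PA6 with FGF2, ES/PA6 with FGF2, PA6 -GFs, ES/PA6 -GFs, PA6 with BMP4 and ES/PA6 with BMP4, and the arrays of neighbours overlapped among the last 3. The lowest PA6 -GFs and the highest ES/PA6 -GFs array both read 10.80. The FGF2 response was smaller in the co-cultures than in the mono-cultures, by -0.68 ± 0.209 (adjusted p 0.0484), a difference under the fold threshold. With BMP4 the change was -0.35 ± 0.148 in the co-cultures (adjusted p 0.371) and -0.38 ± 0.148 in the mono-cultures (adjusted p 0.253), neither past the test, although the mono-culture arrays did not overlap.

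BCL3 (ILMN_2749717), a nuclear IκB-like protein that acts with NF-κB p50 and p52, followed SOCS3 most closely among the 10. Its levels in the co-cultures were 7.33, 7.91 and 6.77 in -GFs, 9.003, 9.07 and 9.11 with FGF2, and 6.94, 6.62 and 7.22 with BMP4. In the mono-cultures they were 8.50, 8.13 and 8.32 in -GFs, 10.12, 10.13 and 10.33 with FGF2, and 7.995, 8.16 and 8.26 with BMP4. The FGF2 arrays of each culture type lay above all its other arrays, and the -GFs and BMP4 arrays overlapped. BCL3 rose by 1.72 ± 0.218 (SE) in the co-cultures, a 3.303-fold change (adjusted p 0.000161), and by 1.88 ± 0.218 in the mono-cultures, a 3.67-fold change (adjusted p 2.09e-05). The difference between these responses was -0.15 ± 0.308 (95% interval -0.81 to 0.50; adjusted p 0.824). The responses of BCL3 in the culture types thus did not differ beyond their error. Without -GFs replicate 3, the array with the lowest BCL3 and the lowest stromal sum of its group, the co-culture rise was 1.44. The BMP4 changes were -0.41 (adjusted p 0.553) and -0.18 (adjusted p 0.865).

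JUNB (ILMN_1220034), a subunit of the AP-1 transcription factor, differed between the culture types in its FGF2 response, while its -GFs arrays overlapped. In the mono-cultures its level was 9.83, 9.37 and 9.74 in -GFs, 11.67, 11.72 and 12.21 with FGF2, and 10.38, 10.11 and 9.95 with BMP4. In the co-cultures it was 9.57, 9.51 and 9.38 in -GFs, 10.37, 10.38 and 9.57 with FGF2, and 9.46, 9.40 and 9.07 with BMP4. The 3 mono-culture FGF2 arrays stood alone at the top, and in the co-cultures FGF2 replicate 3 lay level with the highest -GFs array while the other two lay above. JUNB rose by 2.22 ± 0.215 (SE) in the mono-cultures, a 4.66-fold change (adjusted p 3.19e-06), against 0.62 ± 0.215 in the co-cultures (adjusted p 0.112). The response was smaller in the co-cultures by -1.60 ± 0.304, a difference that passed both thresholds (adjusted p 0.00309). Without FGF2 replicate 3 the co-culture change was 0.89 (adjusted p 0.0107), still under the fold threshold, and the difference -1.33. A second probe, ILMN_1254833, was detected on 2 arrays and was not tested. BMP4 changes were -0.18 (adjusted p 0.884) and 0.50 (adjusted p 0.324).

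**Figure D2:**
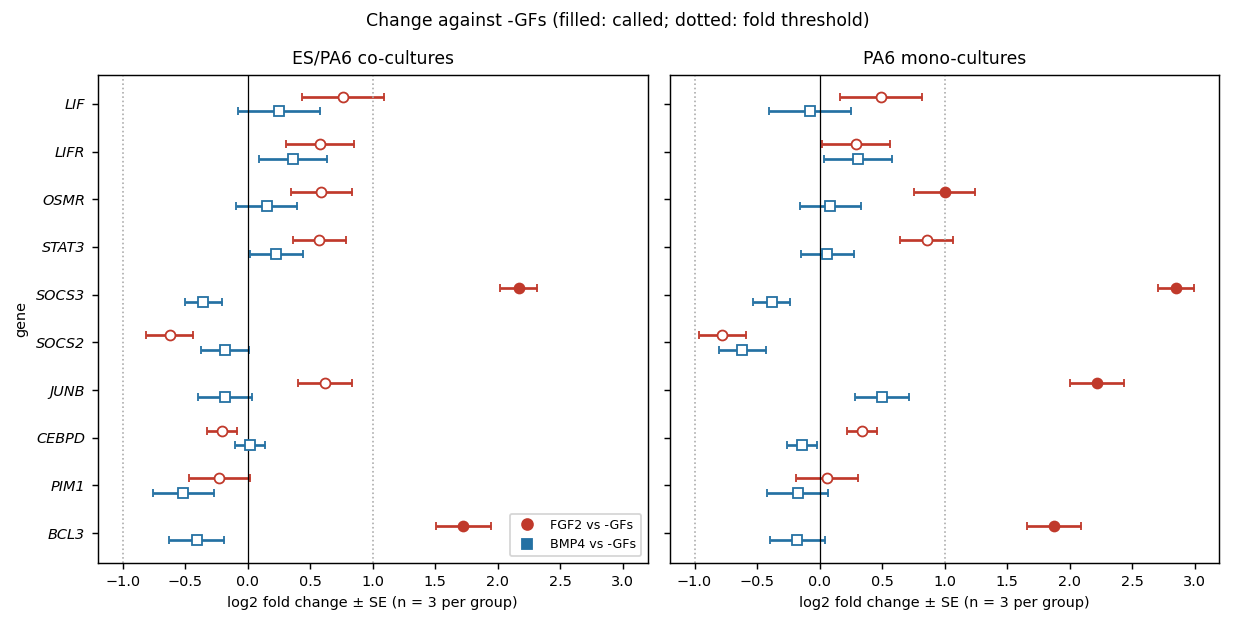
Log2 fold change against -GFs (horizontal axis, ± SE, n = 3 per group) of the 10 genes with FGF2 (circles) and BMP4 (squares), in the co-cultures on the left and the mono-cultures on the right. Filled symbols passed both thresholds: SOCS3 and BCL3 with FGF2 in the co-cultures, those same genes with JUNB and OSMR in the mono-cultures, and no gene with BMP4.

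OSMR (ILMN_2623280), the oncostatin M receptor subunit, was detected on all 18 arrays and was higher in the mono-cultures than in the co-cultures. Its level in the mono-cultures was 11.76, 11.66 and 11.58 in -GFs, 12.68, 12.67 and 12.66 with FGF2, and 11.67, 11.60 and 11.996 with BMP4. In the co-cultures it was 10.44, 10.61 and 9.32 in -GFs, 10.87, 10.71 and 10.57 with FGF2, and 10.34, 10.45 and 10.03 with BMP4. Every co-culture array lay below every mono-culture array, and the low -GFs value belonged to replicate 3. OSMR rose by 1.001 ± 0.243 (SE) with FGF2 in the mono-cultures (adjusted p 0.0102), just past the fold threshold. It was under that threshold without -GFs replicate 2 (0.996), without -GFs replicate 3 (0.96), without FGF2 replicate 1 (0.996), with the cubic spline (0.97) and with no background correction (0.98). In the co-cultures the FGF2 change was 0.59 ± 0.243 (adjusted p 0.201) and dropped to 0.19 without -GFs replicate 3. The response did not differ between the culture types beyond its error (-0.41 ± 0.344, 95% interval -1.14 to 0.32). In -GFs, OSMR was lower in the co-cultures than in the mono-cultures, with a difference of -1.54 ± 0.243 (adjusted p 3.21e-05), or -1.14 without replicate 3.

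LIFR (ILMN_2829008), the LIF receptor subunit, was dim but detected on all 18 arrays. Its level in the co-cultures was 6.83, 6.78 and 6.90 in -GFs, 7.49, 6.90 and 7.86 with FGF2, and 7.22, 6.98 and 7.40 with BMP4. In the mono-cultures it was 6.79, 6.83 and 6.45 in -GFs, 7.33, 6.32 and 7.28 with FGF2, and 7.40, 6.62 and 6.96 with BMP4. Neighbouring groups overlapped throughout the order of the means. The BMP4 and -GFs co-cultures, which are not neighbours in that order, did not overlap. The BMP4 change was 0.36 ± 0.273 (SE; adjusted p 0.748) there and 0.30 ± 0.273 (adjusted p 0.771) in the mono-cultures, where the arrays overlapped. The FGF2 changes were 0.58 ± 0.273 (SE; adjusted p 0.281) in the co-cultures and 0.29 ± 0.273 (adjusted p 0.583) in the mono-cultures, and the difference between culture types in -GFs was 0.15 ± 0.273 (adjusted p 0.647). The other kept LIFR probes were detected on 8 and 4 arrays only, and neither passed the test with FGF2.

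STAT3 itself was bright, with 3 probes detected on all 18 arrays. The brightest, ILMN_2698046, read 11.84, 11.98 and 10.97 in -GFs co-cultures, 12.42, 12.09 and 12.01 with FGF2, and 11.99, 11.90 and 11.59 with BMP4. In the mono-cultures it read 12.50, 12.20 and 12.15 in -GFs, 13.19, 13.25 and 12.99 with FGF2, and 12.43, 12.33 and 12.29 with BMP4. The mono-culture FGF2 arrays lay above all others, and -GFs co-culture replicate 3 lay far below the rest of its group. The FGF2 change in the mono-cultures was 0.86 ± 0.212 (SE; adjusted p 0.0112), a 1.81-fold difference that passed the test but not the fold threshold, with 0.93 and 0.92 at the other two probes. In the co-cultures it was 0.57 ± 0.212 (adjusted p 0.141), with 0.40 and 0.31 at the other two probes and 0.26 at the brightest without -GFs replicate 3. In -GFs, STAT3 differed by -0.68 ± 0.212 between co-cultures and mono-cultures (adjusted p 0.00932), and by -0.37 without replicate 3.

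LIF, the ligand, has 5 probes on the array, of which 3 were detected on no array. Probe ILMN_3137291, the brighter of the others, read 6.05, 6.04 and 5.85 in -GFs co-cultures, 7.54, 7.07 and 5.63 with FGF2, and 6.49, 6.07 and 6.14 with BMP4. Of these it was detected on 2, 2 and 3 of the 3 arrays, and on none of the mono-culture arrays, where it read 5.35 to 6.26. Probe ILMN_3137287 was detected on all 9 co-culture arrays but only 1 mono-culture array, reading 6.03, 6.32 and 6.09 in -GFs, 7.27, 6.85 and 6.33 with FGF2, and 6.00, 6.31 and 6.24 with BMP4. Both probes were higher in FGF2 replicates 1 and 2 than on any other array, and replicate 3 lay apart, undetected at the first probe. The FGF2 change in the co-cultures was 0.76 ± 0.327 (SE; adjusted p 0.223) at the first probe and 0.67 ± 0.217 (adjusted p 0.0885) at the second, both under the fold threshold. Without FGF2 replicate 3 the first reached 1.32 (adjusted p 0.000682) and passed both thresholds. In -GFs, the second probe was detected on all 3 co-culture arrays and no mono-culture array, and no fold is given, since its mean did not exceed the lowest detected signals of the latter.

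SOCS2 (ILMN_2628178), a feedback inhibitor best known for damping growth hormone signals through STAT5, went the other way from SOCS3. In the co-cultures its level was 12.33, 12.03 and 11.94 in -GFs, 11.43, 11.42 and 11.57 with FGF2, and 12.01, 11.95 and 11.79 with BMP4. In the mono-cultures it was 11.08, 11.92 and 11.33 in -GFs, 10.49, 10.88 and 10.61 with FGF2, and 10.59, 11.05 and 10.83 with BMP4. The FGF2 arrays lay below the -GFs arrays in each culture type without overlap. The FGF2 changes were -0.62 ± 0.189 (SE; adjusted p 0.0632) in the co-cultures and -0.78 ± 0.189 (adjusted p 0.0103) in the mono-cultures, past the test but under the fold threshold. With BMP4 the mono-culture change was -0.62 (adjusted p 0.115) and the co-culture change -0.18 (adjusted p 0.854). SOCS2 was 0.66 ± 0.189 higher in co-cultures than in mono-cultures without growth factors (adjusted p 0.00581), the opposite sign to SOCS3 at -0.35 (adjusted p 0.0445).

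CEBPD (ILMN_2707363), a C/EBP transcription factor of the acute-phase response, was lower on all 9 co-culture arrays (11.16 to 11.67) than on the 9 mono-culture arrays (11.85 to 12.54). FGF2 arrays read 11.39, 11.16 and 11.26 against 11.51, 11.47 and 11.44 in -GFs co-cultures, and 12.54, 12.24 and 12.45 against 11.97, 12.19 and 12.07 in -GFs mono-cultures. They thus lay below -GFs in the first and above it in the second. The changes were -0.20 ± 0.12 (SE; adjusted p 0.432) and 0.34 ± 0.12 (adjusted p 0.0753), and their difference, -0.54 ± 0.17, had an adjusted p of 0.0559, under the fold threshold. In -GFs the co-cultures differed by -0.60 ± 0.12 from the mono-cultures (adjusted p 0.000325). PIM1, a serine/threonine kinase, was near the detection limit, with 2 probes detected on 10 and 6 of 18 arrays. The brighter, ILMN_2932713, ranged from 5.67 to 6.93, and its FGF2 changes of -0.23 (adjusted p 0.732) and 0.06 (adjusted p 0.934) were within the spread of its arrays. Its BMP4 change in the co-cultures was -0.52 (adjusted p 0.463). Those arrays did not overlap, with detection on 1 BMP4 array and 3 -GFs arrays. The other, ILMN_2702406, was detected on co-culture arrays only, and for the same reason as with LIF no fold between the culture types is given. In the co-cultures it went the other way, with means of 6.26 with FGF2 and 5.86 in -GFs, and these arrays overlapped.

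Counted over the list, 2 of the 10 rose upon FGF2 stimulation of the co-cultures (SOCS3 and BCL3) and none fell, where 2.14% of all tested genes rose and 3.34% were called in either direction. In the mono-cultures 4 rose (SOCS3, JUNB, BCL3 and OSMR) where 2.71% of all genes rose and 5.27% were called. The median change of the 10 was 0.58 in the first case and 0.67 in the second, against -0.01 over all genes in both. Arrays of FGF2 and -GFs did not overlap for 6 of the 10 genes in co-culture and for 8 in mono-culture, against 19.3% and 33.8% of all genes. At an adjusted p under 0.1 alone, SOCS2 joined in the co-cultures (3 of 10, against 9.05% of all genes), and STAT3, SOCS2 and CEBPD in the mono-cultures (7 of 10, against 18.7%). As the list was chosen with earlier results of these data known, these counts and shares are descriptions only.

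With BMP4 none of the 10 was called by limma in the co-cultures (0.76% of all genes called) or the mono-cultures (1.41%), under any of the alternatives run. The unadjusted limma p was under 0.05 for SOCS3 in the co-cultures and for SOCS3, SOCS2 and JUNB in the mono-cultures. The share of all genes at that level was not counted, so these are descriptions only. Non-overlapping arrays were seen for 3 of 10 in each culture type, against 13% and 21.5% of all genes. The BMP4 and FGF2 comparisons share their -GFs arrays. Set directly against BMP4, FGF2 gave higher SOCS3 by 2.52 ± 0.148 (SE; adjusted p 2.17e-07) and BCL3 by 2.13 ± 0.218 (adjusted p 3.81e-05) in the co-cultures, 2 of 10 called against 2.85% of all genes. In the mono-cultures SOCS3 differed by 3.23 ± 0.148 (adjusted p 1.52e-09), BCL3 by 2.05 ± 0.218 (adjusted p 7.17e-06) and JUNB by 1.72 ± 0.215 (adjusted p 3.33e-05), 3 of 10 against 5.82%. JUNB in the co-cultures differed by 0.80 ± 0.215 (adjusted p 0.0407), under the fold threshold, and without FGF2 replicate 3 by 1.07, when LIF also passed at 1.07.

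The FGF2 response differed between the culture types past both thresholds for JUNB alone, 1 of 10 against 7.39% of all genes. At an adjusted p under 0.1 alone it differed for 3 of 10, JUNB, SOCS3 and CEBPD, against 15% of all genes. No BMP4 response did (0 of 10 against 0.559%). JUNB had an unadjusted p under 0.05 there (difference -0.68, adjusted p 0.479), a level not counted over all genes. In -GFs, co-cultures and mono-cultures differed for OSMR, 1 of 10, where 19.5% of all genes were lower, 39% were called in either direction and the median over all genes was -0.11. BCL3 missed that threshold at -0.98 ± 0.218 (SE; adjusted p 0.000817) and passed it without co-culture replicate 2 (-1.26) or mono-culture replicate 2 (-1.08), but read -0.70 without co-culture replicate 3. Beside these, 6 of the 8 stromal markers were lower in the co-cultures than in the mono-cultures, and their part in the lower OSMR and BCL3 was not tested.

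**Figure D3:**
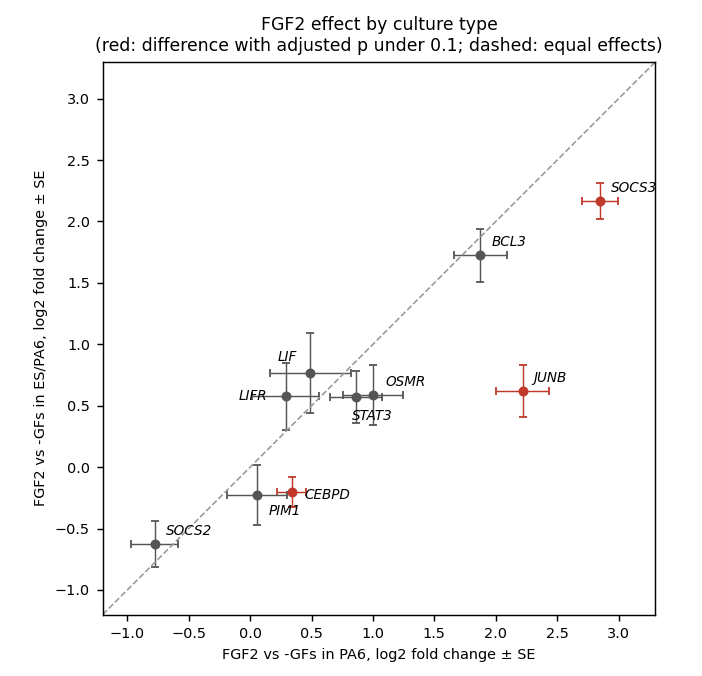
FGF2 response of each gene as log2 fold change ± SE in the mono-cultures (horizontal axis) and the co-cultures (vertical axis), n = 3 per group. The dashed line marks equal responses, and red points had a difference with an adjusted p under 0.1: JUNB (-1.60), SOCS3 (-0.68) and CEBPD (-0.54) lie below the line.

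Marker levels differed with FGF2 as well. In the co-cultures the pluripotent marker sum was 31185, 21069 and 28309 units in -GFs and 42815, 35017 and 39714 units with FGF2, and 2 of the 6 markers rose, NANOG and ZFP42, while UTF1 read -0.73 (adjusted p 0.00509) and POU5F1 -0.10 (adjusted p 0.831). NANOG is also among the pathway targets below. The stromal sum was 82362, 84173 and 61740 units in -GFs and 71553, 56919 and 50688 units with FGF2, so that the groups overlapped, and 1 of 8 markers, THY1, fell. The part of these differences in the co-culture values of the 10 genes was not tested. In the mono-cultures, where the pluripotent sum was at most 404 units, SOCS3 and BCL3 rose by 2.85 and 1.88. Of the 2 neural, 4 endothelial and 3 blood cell markers tested, none was called with FGF2 in the co-cultures. Of the 4 tested adipocyte markers (of 5 listed), ADIPOQ fell with FGF2 in co-culture, where their sum was 1950 to 4129 units in -GFs and 1319 to 1691 with FGF2. All 4 fell with FGF2 in the mono-cultures, from a sum of 8924 to 12035 units to a sum of 366 to 605 units.

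Genes whose levels ran most like those of the members were found by Pearson's r over the 18 arrays, after the mean of each culture type was removed. The arrays share the treatments, so these values are descriptions. For SOCS3 they were SERPINA3N, a secreted protease inhibitor (0.977), BCL3 (0.971) and TIMP1, an inhibitor of metalloproteinases (0.970). BCL3 and SOCS3 correlated at 0.963 over the 9 co-culture arrays and 0.996 over the 9 mono-culture arrays. STAT3 and OSMR were each the other's nearest (0.958, with 0.976 and 0.942 within the culture types), followed for both by SPRY3 (0.932 and 0.938). The nearest to LIF were ZIC4 (0.923), CAPG (0.898) and BC099439 (0.892), with the LIF probe detected on 7 of the 18 arrays.

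**Figure D4:**
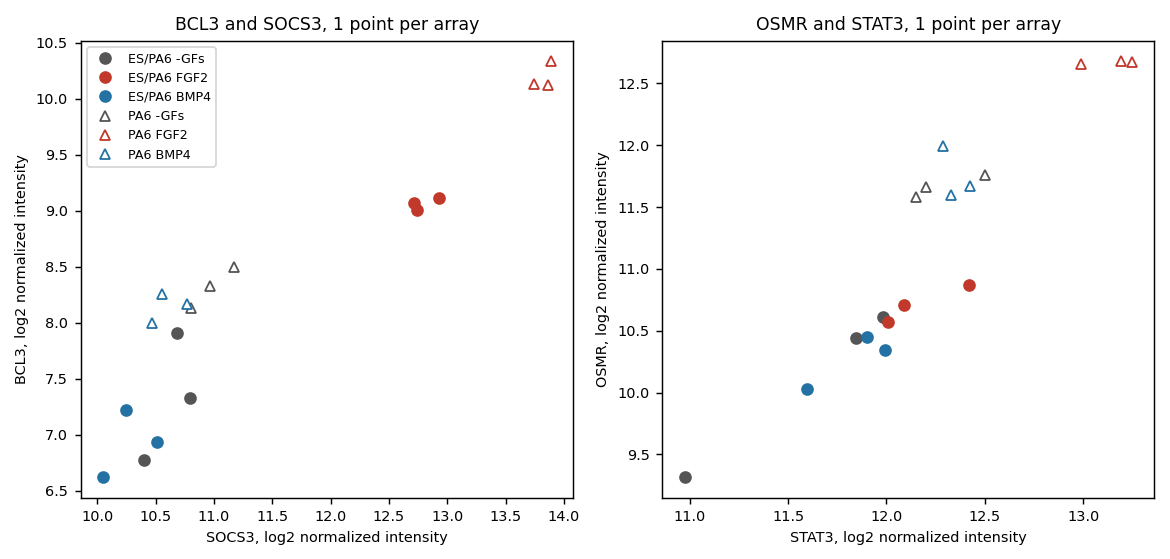
BCL3 against SOCS3 (left) and OSMR against STAT3 (right), as log2 normalized intensity, 1 point per array, with co-cultures filled and mono-cultures open and colours for the treatments. The FGF2 arrays stand apart in both levels on the left, and -GFs co-culture replicate 3 lies lowest in both levels on the right, at 9.32 for OSMR and 10.97 for STAT3.

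Other genes of the pathway were taken from a list of 52 ligands, receptors, kinases, STATs, inhibitors and targets, of which 47 were tested (not CTF2, CNTF, IL27, CNTFR and STAT5B). In the co-cultures 9 of the 47 rose with FGF2 and none fell, with a median change of 0.23, where 2.14% of all genes rose. Of the 9 targets known from ES cells, 5 rose: TBX3 by 2.75 ± 0.213 (SE; adjusted p 1.08e-06), TCFCP2L1, now Tfcp2l1, by 2.38 ± 0.335 (adjusted p 0.00039), KLF4 by 1.80 ± 0.24 (adjusted p 0.000244), KLF5 by 1.52 ± 0.225 (adjusted p 0.000568) and NANOG by 1.25 ± 0.335 (adjusted p 0.0345). All 5 are transcription factors of self-renewing ES cells. The study picked TBX3 and NANOG for PCR, at random among genes modulated in its day 3 array, and reported both as increased by PCR too. Part of the count thus repeats what the study had reported from these arrays and is not independent evidence. The pathway list, too, was chosen with earlier results of these data known. Other targets that rose were TIMP1 (1.59 ± 0.19, adjusted p 8.66e-05) and the adhesion molecule ICAM1 (1.33 ± 0.266, adjusted p 0.00618). Among the kinases JAK3 rose (1.09, adjusted p 0.0483), and among the STATs STAT5A (1.35, adjusted p 0.00186), though its other probe read 0.21. None of the 5 ligands, 5 receptors or 9 inhibitors and phosphatases tested was called. NANOG was not called without -GFs replicate 2 (0.93), FGF2 replicate 1 (1.19) or FGF2 replicate 3 (1.096), nor JAK3 without -GFs replicate 2 (0.92), -GFs replicate 3 (0.99) or FGF2 replicate 1 (0.91). JAK3 read 0.69 and STAT5A 0.95 with the cubic spline as well as with the background uncorrected, and STAT5A 0.78 with the mean of its probes, none of them called.

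In the mono-cultures 5 of the 47 rose with FGF2 and none fell, with a median of -0.04, where 2.71% of all genes rose, and none of the ES cell targets was among them. The acute-phase protein LCN2 rose by 4.41 ± 0.549 (SE; adjusted p 3.77e-05) from 11.42 ± 0.549 to 15.83 ± 0.189 (SD, n = 3). TIMP1 rose by 2.20 ± 0.19 (adjusted p 1.16e-06) and the phosphatase PTPN2, which acts on JAK and STAT proteins, by 1.55 ± 0.146 (adjusted p 2.46e-06). The ligand IL6 was detected on all 3 FGF2 arrays and no -GFs array, at least 3.65-fold higher (adjusted p 1.64e-06), and CLCF1 likewise at least 1.46-fold (adjusted p 0.00213). "At least" sets the bright group against the lowest detected signal of the dim arrays. The call of CLCF1 was lost under several settings, at 0.54 both with the cubic spline and when the background was left uncorrected, 0.96 with median scaling, 0.94 with the mean of its probes, 0.88 without -GFs replicate 3 and 0.94 without FGF2 replicate 2.

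**Figure D5:**
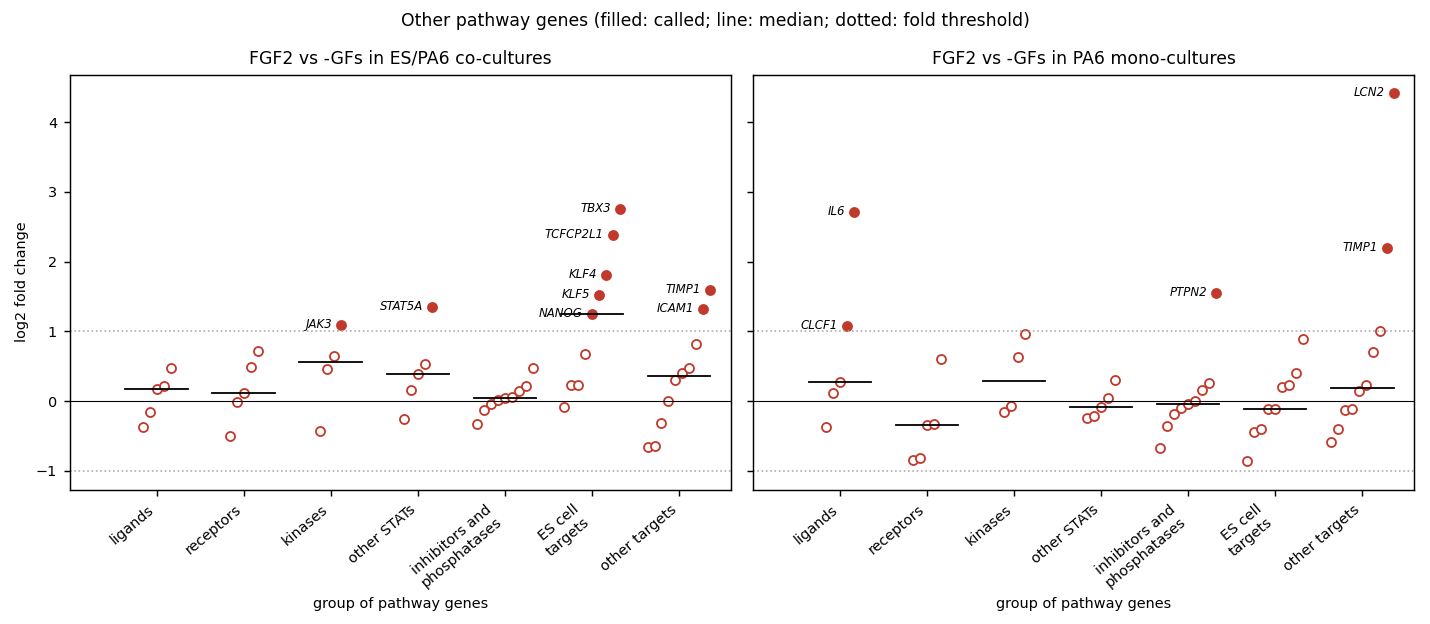
Log2 fold change (vertical axis) with FGF2 of the 47 tested pathway genes by class, in the co-cultures on the left and the mono-cultures on the right. Each point is a gene, filled and named where it passed both thresholds, and lines are class medians. The ES cell targets have a median of 1.25 on the left and -0.11 on the right, where IL6, LCN2 and TIMP1 lead.

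The FGF2 response differed between culture types for 11 of the 47, against 7.39% of all genes. It was more positive in the co-cultures for KLF4 (by 2.66 ± 0.339, adjusted p 0.000144), TCFCP2L1, TBX3, KLF5, PIM3, STAT5A and ICAM1. KLF4 itself read -0.86 with FGF2 in the mono-cultures (adjusted p 0.0237), under the fold threshold. The response was more positive in the mono-cultures for LCN2 (co-culture minus mono-culture response -4.01 ± 0.776, adjusted p 0.00357), IL6, PTPN2 and CCND1. KLF5, TCFCP2L1 and ICAM1 were not detected on any -GFs or FGF2 mono-culture array. Their mono-culture response could thus not be measured, and their difference rests on the co-culture change.

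BMP4 moved few genes of the list. In the co-cultures TBX3 rose by 1.13 ± 0.213 (SE; adjusted p 0.02) and GBX2, a homeobox target in ES cells, fell by 1.76 ± 0.379 (adjusted p 0.0426), so that 1 of 47 rose and 1 fell where 0.76% of all genes were called. In the mono-cultures none rose, and KLF4 was among those that fell, by 1.07 ± 0.24 (adjusted p 0.0255). The calls of TBX3, GBX2 and KLF4 were each lost without single arrays and under other settings. With the cubic spline, the kind of normalization the study's methods name, TBX3 read 0.91 and KLF4 -0.95, as they did with the background uncorrected, and TBX3 read 0.78 with the mean of its probes. In a limma fit of the co-culture arrays alone, the adjusted p was 0.189 for TBX3 and 0.156 for GBX2. GBX2 was lost without -GFs replicate 1 (-1.51) or 2 (-1.60) and without BMP4 replicate 2 (-1.73) or 3 (-1.59), and TBX3 without -GFs replicate 2 (0.94) or BMP4 replicate 1 (0.96). KLF4 was lost without -GFs replicate 1 (-1.01) or BMP4 replicate 2 (-0.90).

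In -GFs, 13 of the 47 were higher and 15 lower in the co-cultures than in the mono-cultures, where 39% of all genes were called and 19.5% were lower. All 5 tested receptors were lower, among them IL6ST, the shared gp130 subunit, with a difference of -1.88 ± 0.176 (SE), IL6RA of -2.48, IL11RA1 of -2.08 and IL27RA of -2.90. Like OSMR they were lower beside lower stromal markers. ES cell targets were mostly higher, with GBX2, KLF5, TCFCP2L1, SALL4 and NANOG detected on all 3 co-culture arrays and no mono-culture array, between at least 27.0-fold and at least 112-fold. The ligand OSM was detected in the same pattern, at least 2.35-fold higher (adjusted p 2.39e-05). Probes of JAK1 disagreed, at 5.51 and -1.98, and no direction is given for it.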

How the data were processed

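RNA of 18 cultures was labelled with biotin and hybridised to Illumina MouseWG-6 v2.0 bead arrays. The authors deposited non-normalized intensity values, 1 per probe and array on a linear scale from 55.5 to 72879, each with a deposited detection p-value against the negative control beads. Per the labels, GenomeStudio 2011.01 was used. No genome build is given in the sources used here, and the table holds no counts, so that the number of arrays limits the precision. The table has 45281 probes, and 5 stray lines with shifted cells after its end were left out. Groups and doses came from the labels, and no 2 arrays were identical (0 pairs).

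Background was corrected and arrays were quantile normalized by neqc of limma 3.58.1 in R 4.3.3 (offset 16, negative controls inferred from the detection p), where the study's methods name a cubic spline. The offset understates changes of dim genes. A probe was kept if its detection p was under 0.05 on 3 or more of the 18 arrays (22987 probes), and the probe with the largest mean stood for its gene, which gave 16446 genes. One limma fit of 6 group means (lmFit, contrasts.fit, eBayes) gave all comparisons, with Benjamini-Hochberg adjustment over all genes. A gene was called at an adjusted p under 0.1 and a log2 fold change over 1 in size. The difference of a response between culture types is an interaction contrast. Single probes were tested in a like fit of all kept probes. The fit was tested on simulated data.

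The members, the pathway and marker lists and the tests were chosen with earlier results of these data known. Named were all 10 members, pathway genes called against -GFs (save 1 that is not reported here), and the 3 genes most like LIF, OSMR, STAT3 and SOCS3. KLF5, SALL4, JAK1, OSM and the other pathway genes given for the culture types or for responses were named after their values were seen. Same-numbered arrays deviated together in the co-cultures (r of 0.325 to 0.521 in all 9 pairs), where the labels give 1 well per treatment for each replicate, but less so in the mono-cultures (0.0628 to 0.164), so that blocking on the replicate number was 1 of the alternatives. Other alternatives were no background correction, median scaling, a cubic spline, other filters, the mean of a gene's probes, trended and robust variances, array weights, other thresholds and leaving out each array. Gene names are those of the array. Promoters are those of RefSeq for GRCm38.p6.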

Additional observations from a re-analysis of the deposited data

Results flagged for a closer look

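By the interaction contrast of limma, the FGF2 response differed between the culture types for 3 of the 10 genes at an adjusted p under 0.1. Over all genes the share at that level was 15%. For JUNB the difference was -1.60 ± 0.304 (SE; adjusted p 0.00309), for SOCS3 -0.68 ± 0.209 (adjusted p 0.0484) and for CEBPD -0.54 ± 0.17 (adjusted p 0.0559). All 3 were less positive in the co-cultures. JUNB alone also passed the fold threshold, where 7.39% of all genes passed both thresholds. No other rule for a closer look was run. Groups of 3 arrays are too small for a test of single outlying arrays.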

How the results depend on the processing

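The members were recomputed under the alternatives, 1702 values over the 9 comparisons, save that LIF and PIM1 had no value where detection on all 18 arrays was required. Of these, 1676 kept their direction where called and their side of the thresholds, 5 lost a call (all OSMR with FGF2 in the mono-cultures), 21 gained one and 0 reversed, while 39 uncalled values changed sign. SOCS3 and BCL3 with FGF2 were called under all 18 alternatives in both culture types, at 2.05 to 2.26 and 1.27 to 2.01 in co-culture, and 2.76 to 2.95 and 1.61 to 1.97 in mono-culture, as was JUNB in the mono-cultures at 2.05 to 2.32. With no fold change threshold 7 of 10 members passed for FGF2 against -GFs in the mono-cultures (18.7% of all genes) and 6 for FGF2 against BMP4 there (20.3%). Between the culture types in -GFs 6 of 10 passed, where 71.2% of all genes did. For the difference of FGF2 responses 3 passed (15% of all genes). Leaving out 1 array gave 2 to 3 members for FGF2 in the co-cultures, beside 416 to 661 of all 16446 genes (3 without FGF2 replicate 3, which added LIF). In the mono-cultures it gave 3 to 4 members, beside 800 to 943 of all genes. For FGF2 against BMP4 in the co-cultures it gave 2 to 4, beside 375 to 515 (4 without FGF2 replicate 3, with JUNB and LIF added). The same in the mono-cultures gave 3 to 4, beside 900 to 998 (4 without BMP4 replicate 3, with OSMR added at 1.03). Between the culture types it gave 1 to 2, beside 6286 to 6654 (2 without replicate 2 of either -GFs group, with BCL3 added). The FGF2 difference gave 1, beside 1069 to 1290. BMP4 gave 0 in the co-cultures (52 to 185 of all genes), the mono-cultures (181 to 237) and their difference (42 to 121). The replicate block changed no member's call, with 2 members called for FGF2 in co-culture and 4 in mono-culture. A fit of the compared culture type alone cannot give the differences between culture types. LIF and PIM1 lay near the detection limit, where the array cannot resolve a modest change.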
